A study of Mus musculus with 2 samples.

Results

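Mirlet7a-1, Mirlet7a-2, Mirlet7c-1, Mirlet7c-2, Mirlet7f-1 and Mirlet7f-2 are the 6 mouse genes that make let-7a, let-7c and let-7f, each of these microRNAs being encoded at 2 loci. They were taken by gene name from the 2202 annotated microRNA genes, and all 6 were present and had reads. The data are microRNA sequencing of mouse heart tissue, with RNA of under 30 bases by the labels. Both libraries come from female F1 hybrid mice of the strain B6CASTF1/J at 14 days of age, and no allele, treatment or other condition distinguishes them, so they form 1 group of 2 biological replicates. A free-text label counts the age in months, and the age field, in days, is used here. The biosample label of replicate 1 speaks of 3 females and that of replicate 2 of 1 female, both carry the same donor entry, and whether replicate 1 was pooled is not stated. A level is given in CPM, the reads counted on a gene's own strand per 1000000 reads counted on all microRNA genes, and only reads that map to a single place in the genome were counted. A read was taken to cover a small RNA from end to end and not a piece of a longer one, so levels of different genes were compared without a correction for length.

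The let-7 microRNAs were found in worms as timers of larval development and are conserved across animals. A hairpin in the primary transcript is cut to a mature strand, here from its 5p arm, which guides Argonaute to messenger RNAs chiefly through the seed, bases 2 to 8. The protein LIN28 blocks their maturation in early embryos, and they accumulate as tissues differentiate, the heart among them. In human cells the precursors of let-7a-2 and let-7c form a separate class from most other let-7 precursors, which need addition of a single uridine before the final cut. Mirlet7c-1 is the mouse counterpart of that human let-7c gene.

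The mature strands are shown because all reads are read against them. RefSeq entries on GRCm38.p6 were found for all 6 loci. Capitals mark the seed.
let-7a-5p: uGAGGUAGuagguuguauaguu
let-7c-5p: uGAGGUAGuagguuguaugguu
let-7f-5p: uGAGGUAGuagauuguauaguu
Counted from 1 at the 5′ end, let-7c carries A19G and let-7f carries G12A relative to let-7a. The seed of all 9 let-7 forms compared (let-7a to let-7g, let-7i and miR-98) was the same, so the 3 forms differ from each other outside it.

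The hairpins show where the 6 loci are alike and where they differ. Capitals mark the mature 5p strand and the annotated strand of the 3p arm.
Mirlet7a-1: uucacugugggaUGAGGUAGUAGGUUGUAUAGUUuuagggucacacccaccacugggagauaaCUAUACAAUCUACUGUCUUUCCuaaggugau
Mirlet7a-2: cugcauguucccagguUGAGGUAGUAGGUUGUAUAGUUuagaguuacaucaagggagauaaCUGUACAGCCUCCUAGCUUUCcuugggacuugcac
Mirlet7c-1: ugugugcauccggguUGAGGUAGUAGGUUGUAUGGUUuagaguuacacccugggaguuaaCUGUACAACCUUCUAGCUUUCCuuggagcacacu
Mirlet7c-2: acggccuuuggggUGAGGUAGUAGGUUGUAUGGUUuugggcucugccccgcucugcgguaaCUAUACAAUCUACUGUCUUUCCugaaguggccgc
Mirlet7f-1: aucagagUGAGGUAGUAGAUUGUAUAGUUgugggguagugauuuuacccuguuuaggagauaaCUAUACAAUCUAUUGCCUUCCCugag
Mirlet7f-2: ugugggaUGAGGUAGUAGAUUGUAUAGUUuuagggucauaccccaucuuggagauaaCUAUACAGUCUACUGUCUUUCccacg
The 3p strand of Mirlet7a-1 was identical to that of Mirlet7c-2, and that of Mirlet7f-2 differed from both by A8G alone over its 21 bases. Between the copies of a pair, the 3p strands differed at 6 positions for let-7a, 5 for let-7c and 4 for let-7f, over the length they share. For 5 of the 6 loci the most alike hairpin was one of another form, and for Mirlet7f-1 it was its own copy. Over aligned positions, identity was 68.9% between Mirlet7a-1 and Mirlet7a-2, 67.3% between Mirlet7c-1 and Mirlet7c-2 and 72.2% between Mirlet7f-1 and Mirlet7f-2. Across forms it reached 80.0% between Mirlet7a-1 and Mirlet7f-2, 79.2% between Mirlet7a-2 and Mirlet7c-1 and 73.7% between Mirlet7a-1 and Mirlet7c-2.

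The 6 loci lie on 5 chromosomes (mm10). Mirlet7a-1 (ENSMUSG00000065421.3, chromosome 13, 48538179 to 48538272, minus strand) and Mirlet7f-1 (ENSMUSG00000105621.1, chromosome 13, 48537829 to 48537917, minus strand) sit 261 bases apart in an exon of the lincRNA 6720427I07Rik, with Mirlet7d downstream on the same strand. Mirlet7f-1 is covered over its whole length by another annotated microRNA gene, Gm24111, on the opposite strand. Mirlet7c-2 (ENSMUSG00000065608.1, chromosome 15, 85706603 to 85706697, plus strand) lies in an exon of the non-coding transcript Lncppara, 621 bases from Mirlet7b. Mirlet7a-2 (ENSMUSG00000092770.1, chromosome 9, 41536716 to 41536811, plus strand) lies in introns of the non-coding genes 3110039I08Rik and Gm49317, between Mir100 and Mir125b-1. Mirlet7c-1 (ENSMUSG00000065557.3, chromosome 16, 77599657 to 77599750, plus strand) lies in an intron of Mir99ahg, between Mir99a and Mir125b-2, and the protein-coding gene Gm11146 spans it on the other strand without an exon there. Mirlet7f-2 (ENSMUSG00000065602.1, chromosome X, 151912346 to 151912428, plus strand) lies in an intron of Huwe1, which encodes a ubiquitin ligase, 785 bases from Mir98.

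Replicate 1 held 12701590 reads, of which 5237062 were counted on microRNA genes, and replicate 2 held 7126319, of which 3026501 were counted. Reads mapping to several places, which are counted for no gene, made up 41.1% of replicate 1 and 39.9% of replicate 2. A count of 10 reads or more in each library was reached by 335 genes, among them 5 of the 7 heart muscle genes looked up, while Mir1a-1 and Mir133a-2 fell short. Mir1a and Mir133a each have 2 numbered copies, and reads that fit both copies are not counted. Their low counts therefore do not show that these microRNAs were scarce. The 3 neuronal Mir124a genes had 0 reads in both libraries. They are numbered copies too, and reads that fit more than 1 copy are not counted. Their 0 reads therefore do not show that the microRNA was absent. In a whole tissue, fewer cells of a type and less RNA per cell cannot be told apart. SDs are over 2 libraries and measure only the spread between these samples. Intervals are exact 95% Clopper-Pearson intervals. They are taken within 1 library and cover the counting of reads only. The counts also carry no molecular identifiers to separate molecules from their PCR copies.

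The duplicated loci carried a small part of the counted let-7 reads, and Mirlet7f-2 carried most of that part. Together they had 46079 reads in replicate 1 and 23514 in replicate 2. Of the reads on the 12 let-7 genes this was 2.77% (interval 2.75 to 2.80) in the first library and 2.32% (2.29 to 2.35) in the second, or 2.55% ± 0.321 (SD, n = 2). The other 6 let-7 genes, each the only source of its mature strand, held the remaining 97.5% ± 0.321. Of all reads on microRNA genes, the 6 loci had 0.880% in replicate 1 and 0.777% in replicate 2. For every 100 reads that mapped to several places, 0.883 and 0.826 reads were counted on the 6 loci. The deposited tables do not say to which genes those reads belong, so the amounts of let-7a, let-7c and let-7f in the heart are not given by these counts.

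**Figure D1:**
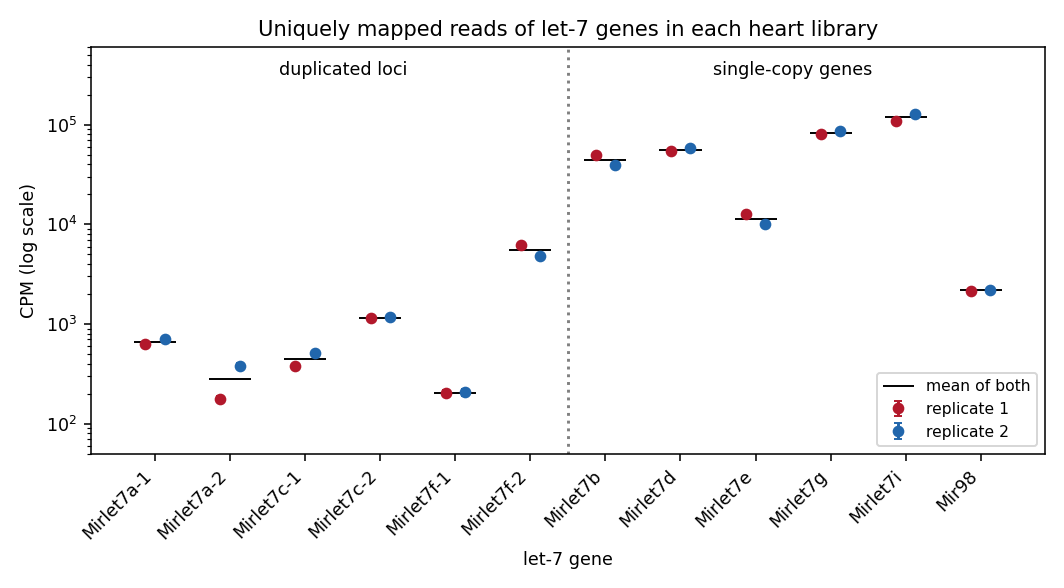
Level of each let-7 gene in CPM on a log axis, for the 6 duplicated loci and the 6 single-copy genes; points are the libraries with exact 95% counting intervals (mostly smaller than the point) and bars are means. Mirlet7f-2, at 6279 and 4801 CPM, lies above Mir98 and below the other single-copy genes, and the other 5 duplicated loci lie below all single-copy genes.

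Of the let-7f copies, Mirlet7f-1 had 1060 reads in replicate 1 and 624 in replicate 2, at 202 CPM (interval 190 to 215) and 206 CPM (190 to 223). Its mean was 204 ± 2.67 CPM (SD, n = 2), rank 120 of all genes and the smallest SD among the 6 loci. The X-linked Mirlet7f-2 had 32884 and 14529 reads, which put it at 6279 CPM (6212 to 6347) and 4801 CPM (4723 to 4879), a mean of 5540 ± 1045 CPM at rank 25. Mirlet7f-2 alone held 71.4% of the members' reads in replicate 1 and 61.8% in replicate 2.

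Of the let-7c copies, Mirlet7c-1 had 1992 reads in replicate 1 and 1543 in replicate 2, at 380 CPM (364 to 397) and 510 CPM (485 to 536). Mirlet7c-2 had 5954 and 3524 reads, at 1137 CPM (1108 to 1166) in replicate 1 and 1164 CPM (1126 to 1203) in replicate 2. Mirlet7c-2 was thus higher than Mirlet7c-1 in both libraries, with means of 445 ± 91.5 CPM for Mirlet7c-1 and 1151 ± 19.4 CPM for Mirlet7c-2. Of the let-7a copies, Mirlet7a-1 had 3260 reads in replicate 1 and 2144 in replicate 2, at 622 CPM (601 to 644) and 708 CPM (679 to 739). Mirlet7a-2 had 929 and 1150 reads, at 177 CPM (166 to 189) in replicate 1 and 380 CPM (358 to 403) in replicate 2. Here the first copy was higher in both libraries, with means of 665 ± 60.8 CPM for Mirlet7a-1 and 279 ± 143 CPM for Mirlet7a-2.

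By mean level the order was Mirlet7f-2, Mirlet7c-2, Mirlet7a-1, Mirlet7c-1, Mirlet7a-2 and Mirlet7f-1. The values of neighbours in this order did not overlap between libraries down to Mirlet7c-1. Mirlet7c-1 was above Mirlet7a-2 inside each library, though its 380 CPM in replicate 1 equalled, to the digits given, that of Mirlet7a-2 in replicate 2. Mirlet7a-2 lay below Mirlet7f-1 in replicate 1 and above it in replicate 2, so the order of Mirlet7a-2 and Mirlet7f-1 is not beyond the spread. The single-copy genes ranged from 2170 ± 41.0 CPM for Mir98 to 119239 ± 15041 CPM for Mirlet7i. Mir7j and Mir7k, whose mature strands are named let-7j and let-7k, had 98 and 2 reads in replicate 1 and 84 and 0 in replicate 2, and were not counted among the 12.

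Within each pair the copies were set against each other inside a library, where depth cancels. The log2 ratio of Mirlet7f-1 to Mirlet7f-2 was -4.95 in replicate 1 (counting interval -5.04 to -4.87) and -4.54 in replicate 2 (-4.66 to -4.43), so the first copy had 31.0-fold and 23.3-fold fewer reads. The ratio of Mirlet7c-1 to Mirlet7c-2 was -1.58 (-1.65 to -1.51) and -1.19 (-1.28 to -1.10), or 2.99-fold and 2.28-fold fewer. The ratio of Mirlet7a-1 to Mirlet7a-2 was 1.81 (1.71 to 1.92) and 0.90 (0.79 to 1.00), or 3.51-fold and 1.86-fold more. Thus the same copy led in both libraries for each pair, but the let-7a ratio changed by 0.91 on the log2 scale between libraries, against 0.39 for let-7c and 0.41 for let-7f in size.

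An exact test of such a ratio that takes the 2 libraries as its units, and not the reads, cannot pass a threshold of 0.05. The ratios were therefore set beside a pooled standard error of 0.64 (log2). It was taken from how far 226 genes averaging 100 reads or more moved between the libraries. The mean log2 ratio was -4.75 ± 0.293 (SD, n = 2) for let-7f, 7.40 times that error in size. It was -1.39 ± 0.274 for let-7c and 1.35 ± 0.645 for let-7a, 2.16 and 2.11 times the error. This error covers movement between the libraries only and treats the 2 copies as moving independently. It does not cover a difference between copies in which reads map to a single place, since that would recur in both libraries. These multiples concern counted reads and are not a test of how much each copy makes.

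Which reads can be counted at a locus follows from its sequence, and was read off all 2202 annotated hairpins on both strands. Other parts of the genome were not part of that search. The mature let-7a, let-7c and let-7f strands each occurred at 2 loci, whereas each mature 5p strand of the 6 single-copy genes occurred at 1. A read that starts at the first mature base of Mirlet7a-1, Mirlet7a-2, Mirlet7c-1 or Mirlet7c-2 occurs at a single locus only from a length of 24 bases. For Mirlet7f-1 and Mirlet7f-2 that length was 23 bases, and for the single-copy genes it was 16 or 17 bases, 16 being the shortest length examined. A full-length mature read without further bases is therefore not assigned to either copy. The 3p strand occurred at 1 locus for Mirlet7a-2, Mirlet7c-1, Mirlet7f-1 and Mirlet7f-2. Those of Mirlet7a-1 and Mirlet7c-2 are shared, and a read from their first base needed 24 bases.

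**Figure D2:**
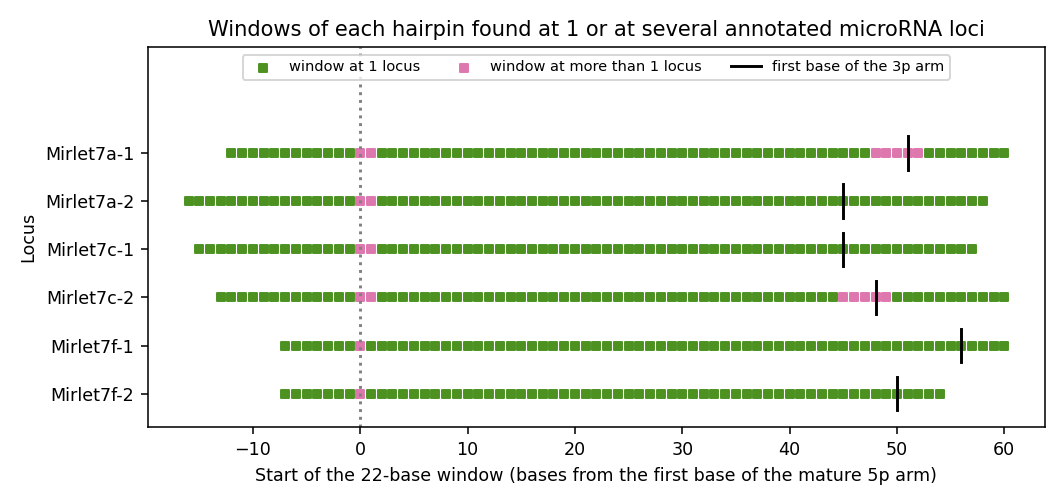
Each square is a 22-base window of a hairpin, placed by its start relative to the first mature base (dotted line) and coloured by whether it occurs at 1 or at several annotated microRNA loci; the black mark is the first base of the 3p arm. Windows shared with another locus cluster at the mature strand in all 6 hairpins, and also around the 3p strand in Mirlet7a-1 and Mirlet7c-2.

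Of the 22-base windows of the 6 hairpins, 405 of 425 (95.3%) occurred at 1 locus. The share was 90.4% for Mirlet7a-1 and 90.5% for Mirlet7c-2, and between 97.3% and 98.5% for the other 4. It was 100% over the single-copy let-7 genes, and 67.9% over all other annotated hairpins, many of which belong to large repeated families. The loci with the most shared windows, Mirlet7a-1 and Mirlet7c-2, were the copies with more counted reads in their pairs. These shares weigh every stretch of a hairpin alike, and their part in the counts was not tested.

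The bases that follow the mature strand are shown because they are the first at which copies differ on a read that starts at the mature 5′ end. Capitals mark the next 4 bases of the hairpin.
Mirlet7a-1: ugagguaguagguuguauaguuUUAG
Mirlet7a-2: ugagguaguagguuguauaguuUAGA
Mirlet7c-1: ugagguaguagguuguaugguuUAGA
Mirlet7c-2: ugagguaguagguuguaugguuUUGG
Mirlet7f-1: ugagguaguagauuguauaguuGUGG
Mirlet7f-2: ugagguaguagauuguauaguuUUAG
The mature strand is followed by a run of 2 U in Mirlet7a-1, Mirlet7c-2 and Mirlet7f-2, of 1 U in Mirlet7a-2 and Mirlet7c-1, and of 0 U in Mirlet7f-1. In each of the 3 pairs the copy with the longer run had more counted reads in both libraries. The count tables hold no read lengths or read sequences, so neither the length of the counted reads nor the arm they came from is given, and the part of these bases in the counts was not tested.

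Imbalance between copies was common among microRNAs with 2 numbered copies. Of 43 such microRNAs, 17 had at least 10 reads on each copy in both libraries, the 3 let-7 pairs among them. Of the other 14, the same copy led in both libraries in 12, and the median size of the mean log2 ratio was 0.99, with a range of 0.11 to 7.71. By this size the let-7f pair ranked 2 of 17, behind only Mir181b, and the let-7c and let-7a pairs ranked 8 and 9. A lead of at least 2-fold in both libraries was seen for 2 of the 3 let-7 pairs, let-7c and let-7f, and for 5 of the other 14.

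**Figure D3:**
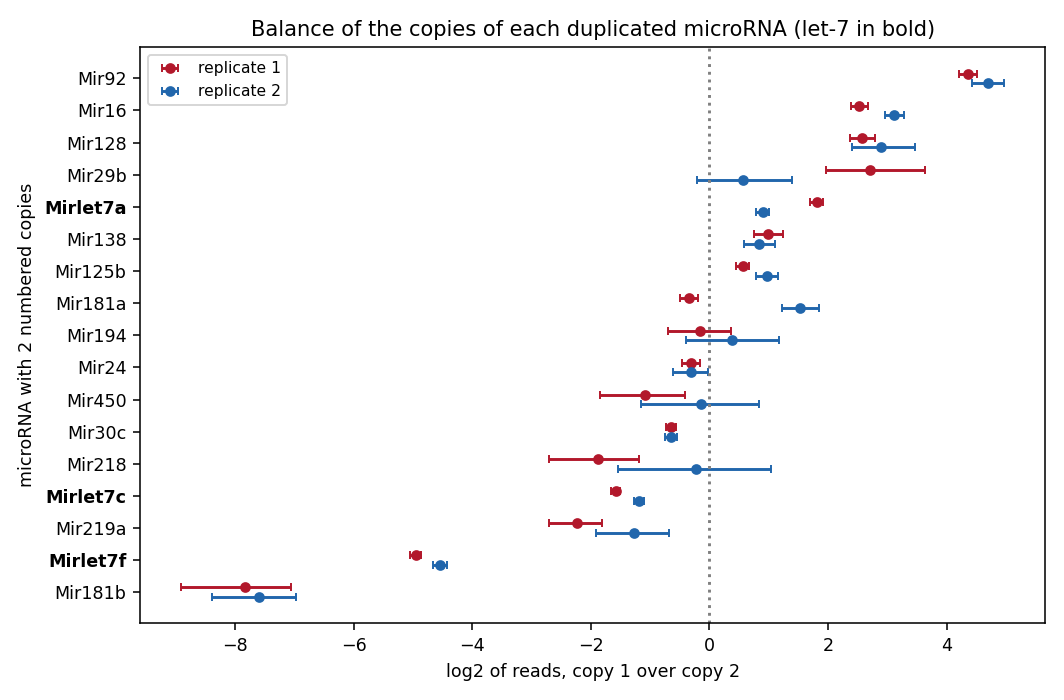
log2 ratio of reads on copy 1 over copy 2 for the 17 microRNAs with 2 numbered copies and at least 10 reads on each in both libraries, 1 point per library with its exact 95% counting interval; values above 0 mean more reads on copy 1. Mirlet7f lies at -4.95 and -4.54, second in size to Mir181b, while Mirlet7a and Mirlet7c lie on opposite sides of 0 at moderate size.

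Neighbouring microRNAs of the same transcripts had far more counted reads than the duplicated loci at most sites. The 2 sides are not countable alike. A read from the first mature base occurs at 1 locus from 16 or 17 bases for Mirlet7d, Mirlet7b and Mir98. For the duplicated loci beside them it does so only from 23 or 24 bases. The folds below are of counted reads and do not give the relative output of the genes. Mirlet7a-1 had 87.3-fold and Mirlet7f-1 268-fold fewer reads than the nearby Mirlet7d in replicate 1, and 82.8-fold and 284-fold fewer in replicate 2. The log2 ratio of Mirlet7a-1 to Mirlet7f-1, which share an exon, was 1.62 in replicate 1 and 1.78 in replicate 2. These ratios were among the steadiest, with log2 values within 0.16 of each other between libraries. Mirlet7c-2 had 43.8-fold and 34.1-fold fewer reads than Mirlet7b. At the X-linked site the direction was the other way, with 2.93-fold and 2.18-fold more reads on Mirlet7f-2 than on Mir98.

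At the sites that combine let-7 with the miR-99/100 and miR-125 families, Mirlet7a-2 had 28.7-fold fewer reads than Mir100 in replicate 1 and 12.8-fold fewer in replicate 2. Mirlet7c-1 had 72.4-fold and 52.0-fold fewer than Mir99a. Against the miR-125b copies, which also share their mature strand with each other, the picture was mixed. The log2 ratio of Mirlet7a-2 to Mir125b-1 was -0.83 in replicate 1 and 0.66 in replicate 2, so its direction differed between libraries. That of Mirlet7c-1 to Mir125b-2 was 0.84 and 2.05. The pooled standard error of 0.64 treats the 2 genes of a ratio as moving independently between libraries, which was not tested for neighbours. The SD of the log2 ratio over the 2 libraries was 0.05 for Mirlet7a-1 to Mirlet7d and 1.05 for Mirlet7a-2 to Mir125b-1. The pooled error is therefore not used for these ratios.

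On strand, the opposite-strand reads of the 6 loci came to 2 reads in replicate 1 and 0 in replicate 2, all at Mirlet7f-1. Without strand, Mirlet7f-1 and the overlapping Gm24111 both had 0 reads in both libraries, and the opposite-strand column of Gm24111 held the same 1060 and 624 reads as Mirlet7f-1 on its own strand. The other 5 loci had the same counts with and without strand. The level of Mirlet7f-1 therefore exists only in the stranded counts.

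The 2 libraries were compared gene by gene, replicate 1 over replicate 2, after TMM scaling, and this compares those libraries and not conditions. Mirlet7a-2 differed most among the 6 loci, with a log2 difference of -1.23 (counting interval -1.36 to -1.11), or 2.35-fold lower in replicate 1 (adjusted p = 1.45e-82). Mirlet7c-1 followed at -0.56 (-0.65 to -0.46; adjusted p = 1.33e-28). At the sites of these loci, Mir100 had -0.07, Mir99a -0.08, Mir125b-1 0.25 and Mir125b-2 0.66. Mirlet7a-1 was lower at -0.32 (adjusted p = 9.40e-15) and Mirlet7c-2 at -0.17 (adjusted p = 1.45e-07). Mirlet7f-2 was higher at 0.25 (0.22 to 0.28; adjusted p = 6.06e-70), and Mirlet7f-1 had -0.16 (-0.30 to -0.016) and was not called (adjusted p = 0.0526). These are exact two-sided binomial tests with Benjamini-Hochberg adjustment over the 430 genes whose summed count reached 10, and they measure counting error only.

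In all, 5 of the 6 loci were called, 1 higher and 4 lower in replicate 1. Of all 430 genes 55.3% were called, 27.9% higher and 27.4% lower, so a call was common. A difference of at least 2-fold was reached by 1 of 6 loci, Mirlet7a-2, against 28.6% of all genes. The median size of the difference was 0.29 over the 6 loci and 0.53 over all genes on the log2 scale. Many of the 430 genes had few reads. Among the 226 genes averaging 100 reads or more, as all 6 loci do, the same test called 182. Of these 226 genes, 41 were past 2-fold, and their median size was 0.40, so the 6 loci did not stand out from this set. The set also holds genes with fewer reads than any of the 6 loci, so it is not matched to them in depth. Of the 6 single-copy let-7 genes 6 were called, 2 higher and 4 lower, with 0 past 2-fold, and of the 6 neighbours 6 were called, 3 higher and 3 lower, with Mir125a (log2 1.20) and Mir99b (-1.60) past 2-fold. When edgeR's exact test was given an assumed biological coefficient of variation of 0.1, Mirlet7a-2 (adjusted p = 1.83e-07) and Mirlet7c-1 (adjusted p = 0.0336) were called and the other 4 loci were not. That test called 123 of all 430 genes (28.6%), so 2 of 6 is near the background. Scaled by total counts, Mirlet7c-2 lost its call in the exact binomial test (log2 -0.03, adjusted p = 0.363), and also when every gene with a read was kept (log2 -0.04, adjusted p = 0.426).

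The libraries also differed in markers of other cells. The erythroid Mir451a and Mir144 had a summed level of 337 CPM in the first library and 6972 CPM in the second, the heart muscle list one of 5192 and 3454 CPM (4 of its 7 genes higher in replicate 1 and 3 lower), and the endothelial Mir126a stood at 42911 and 63991 CPM. Mir499 made up most of the heart muscle sum, at 3482 CPM in replicate 1 and 2486 CPM in replicate 2. The 5 epithelial genes summed to 549 and 337 CPM, with 4 of 5 detected. The smooth muscle Mir143 stood at 29124 CPM in replicate 1 and 33002 CPM in replicate 2 and Mir145a at 1209 and 877 CPM, in opposite directions (30333 and 33879 CPM in sum), and the liver Mir122 stood at 55.9 and 70.4 CPM. Their part in the differences of the let-7 loci was not tested.

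**Figure D4:**
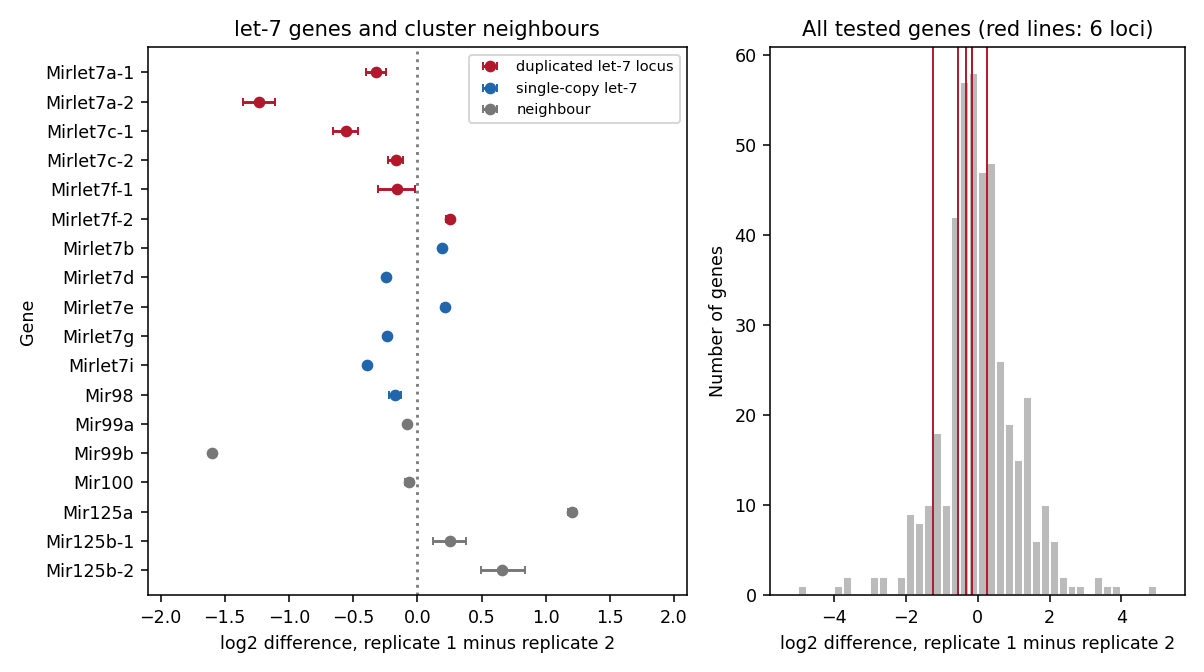
Left, log2 difference (replicate 1 minus replicate 2, TMM-scaled) with counting intervals for the 6 duplicated let-7 loci, the 6 single-copy let-7 genes and 6 cluster neighbours; right, its distribution over all 430 tested genes, with the 6 loci as red lines. Mirlet7a-2 at -1.23 is the only one of the 6 loci past 2-fold, and Mirlet7f-2 at 0.25 is the only one higher in replicate 1.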

How the data were processed

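The authors deposited whole-number read counts per gene for each library, not normalized, and the deposited readme names mm10 and annotation M21. Read trimming, alignment and counting tools were not given in the sources used here. Each table has 3 count columns, whose values show unstranded, own-strand and opposite-strand counts; the own-strand column was used. The 4 summary lines at the top were left out of every library size and test; their share was 58.8% in replicate 1 and 57.5% in replicate 2.

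All 2202 gene IDs matched GENCODE M21 names. CPM used the sum over gene rows. Ratios had 0.5 reads added to each count. TMM factors came from edgeR 4.0.16 over genes whose summed count reached 10, and the binomial test took its expected share from the scaled library sizes, with an adjusted p threshold of 0.05. It was first run on simulated counts with counting error only, which is the error it assumes. That run cannot show how the test behaves where samples also differ beyond counting error. A floor of 3 reads is worth 0.573 CPM in the first library and 0.991 CPM in the second. Hairpin windows used GENCODE M21 transcripts, counting overlapping genes at 1 place once. Hairpins were aligned globally with Biopython 1.88. DESeq2 1.42.0 size factors, scipy 1.17.1, numpy 2.4.6, pandas 2.3.3 and matplotlib 3.10.9 ran under Python 3.11.15 and R 4.3.3.

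The members, lists, comparisons and the rule for named genes (the 6 loci, the single-copy let-7 genes and the neighbours of the miR-99/100 and miR-125 families) were chosen with earlier results of these data known. No gene was named for a similar pattern, since 2 libraries of 1 group give none. The alternatives were unstranded counts, each library alone, other pseudocounts, denominators, filters, scalings and window lengths, and edgeR's exact test; adding Mir7j and Mir7k to the family was chosen after seeing the data.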

Additional observations from a re-analysis of the deposited data

Results flagged for a closer look

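Reads that map to several places are outside every comparison made here and made up 41.1% of replicate 1 and 39.9% of replicate 2. They are given because they are signal outside the main measurement. The tables do not divide them by gene.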

How the results depend on the processing

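The copy ratios kept their direction under every alternative that gave a value. Leaving out 1 library gave log2 ratios of 0.90 to 1.81 for let-7a, -1.58 to -1.19 for let-7c and -4.95 to -4.54 for let-7f, and a pseudocount of 10 gave 1.35, -1.38 and -4.73. Unstranded counts gave no let-7f ratio, since Mirlet7f-1 then has 0 reads. The members' share of let-7 reads was 2.32% to 2.77% in single libraries and 2.55% with Mir7j and Mir7k added; as a share of all gene reads it was 0.828%, by construction of the larger denominator. Unstranded it was 2.58%, but Mirlet7e, like Mirlet7f-1, then has 0 reads, so this value is not over the same genes. The mean level of Mirlet7a-2, 279 CPM, was 177 CPM without replicate 2 and 380 CPM without replicate 1. Levels per read of any kind were lower for all 6 loci and unstranded levels higher for the 5 that have one (Mirlet7f-2: 2314 and 7566 CPM), by construction of the denominator. Of 6 loci, 5 were called with DESeq2 size factors (all genes: 240 of 430) or at a mean of at least 100 reads (187 of 226), 4 with total counts (240 of 430) or over every gene with a read (234 of 723), 5 of 5 unstranded (216 of 403), and 2 by edgeR's exact test (123 of 430); 1 was past 2-fold under each of these scalings and filters. No difference between libraries changed sign. Against scaling by totals, TMM shifted every log2 difference by -0.13. Windows at 1 locus made up 84.0% at 18 bases and 99.0% at 25 bases, since longer windows reach more differing bases. No paired analysis was possible because there is 1 group, and no test between libraries can leave out a library. Depth limits Mirlet7f-1 most, where 624 reads in replicate 2 leave an interval of 190 to 223 CPM.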
